A study of Homo sapiens with 9 samples.

Results

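A metastatic derivative of the clear cell renal cell carcinoma (ccRCC) line 786-O was compared gene by gene with HK2, a cell line of the normal proximal tubule of the kidney. RNA-seq counts of 3 cultures of each line were compared over the 12721 of 28395 genes in the count table that had a mean of at least 50 counts over these 6 libraries. The members were therefore chosen on abundance over both lines together, without reference to which line was higher. The remaining 15674 genes fell below the minimum, and 7716 of those had 0 counts in all 6 libraries. RAB41, RGS7 and WHAMMP3, with a mean of 49.8 counts, lay just below the minimum, and C1QL3, CACNB4 and EFNA3 lay exactly on it with 50.

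The study held 3 libraries each of HK2, of 786-O and of 1 metastatic derivative of 786-O, here called the metastatic line and given by its label on the axes of the plots, all untreated and all grown stably in Plasmax, a medium whose nutrients follow human serum. The metastatic line was taken from lung metastases formed after 786-O had been injected in vivo, and 786-O came from a primary ccRCC. HK2 is an immortalized line from normal renal tissue. The study grew the replicates as separate dishes of 1 line, so the spread given here is that of cultures and not of donors. Because the 2 lines compared come from different people, differences of donor, of immortalization and culture history, of ccRCC and of metastasis cannot be told apart in this comparison. HK2 in this text always means the cell line, which shares its name with the symbol of the hexokinase 2 gene.

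The proximal tubule reabsorbs most of the filtered glucose, amino acids, phosphate and proteins, with transporters and endocytic receptors in a brush border, and it burns fatty acids and amino acids in its many mitochondria. ccRCC is thought to arise from this epithelium. In most of these tumors the VHL protein, which marks the alpha subunits of the hypoxia-inducible factors (HIF) for destruction when oxygen is present, is lost, and HIF targets for glucose uptake, glycolysis, pH control and vessel growth are switched on in normal oxygen.

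The 6 libraries held between 30212291 and 45362428 counts, and the genes tested carried 99.8% to 99.9% of them. Correlations of log2 CPM across genes were 0.997 to 0.998 between cultures of 1 line and 0.718 to 0.723 between the lines. A floor of 3 counts corresponded to 0.0645 to 0.0957 CPM. CPM are counts scaled to a common library total after TMM (trimmed mean of M values) normalization. They are not divided by gene length, so levels are compared between lines within a gene.

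The label of HK2 as a proximal tubule line was checked against 32 genes of tubule function. Only 12 of them reached the minimum. LRP2, which encodes the endocytic receptor megalin, had 0 counts in all 6 libraries, as did the transporter genes SLC5A12, SLC6A19, SLC22A6, SLC22A8 and SLC22A12. CUBN, the partner receptor of megalin, had 22 to 32 counts in HK2 and 32 to 49 in the metastatic line. The water channel gene AQP1 had 16 to 36 counts in HK2 and 26 to 37 in the metastatic line. Most defining transport genes of the tubule were therefore absent or near the floor in both lines, and "tubule" below names the origin of HK2 and not a cell with tubule transport. GGT1, DPP4, MME and SLC4A4, which encode brush border enzymes and the basolateral bicarbonate transporter, were present in both.

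Markers of other cells were counted as well. Of 14 leukocyte markers only CD68 and CSF1R reached the minimum. PTPRC, CD3E and MS4A1, which define leukocytes and lymphocytes, had 0 counts in all 6 libraries, and the summed level of the list was 38.5 to 42.9 CPM in the metastatic line and 61.4 to 64.5 CPM in HK2. The endothelial list summed to 12.1 to 14.8 CPM in the metastatic line and 53.5 to 59.5 CPM in HK2. Most of it was ENG in both lines, while the endothelial genes PECAM1, CDH5 and VWF had at most 3 counts in any library. KDR, of the same list and below the minimum, went the other way, with 40, 33 and 33 counts in the metastatic line and 0, 1 and 0 in HK2. TIE1 had 76, 96 and 111 counts in HK2 and 6, 7 and 5 in the metastatic line. ERG, an endothelial transcription factor, had 120, 165 and 222 counts in HK2 and 0 in every metastatic library. The distal nephron and podocyte list summed to 992.8 to 1029 CPM in the metastatic line and 105 to 119.8 CPM in HK2. In the metastatic line that sum was nearly all SYNPO, an actin-binding protein of podocytes that other cells also express, and in both lines NPHS1, AQP2 and UMOD had at most 1 count. Lung epithelial markers, counted because the metastatic line had grown in the lung, summed to 2.23 to 3.80 CPM there and 5.85 to 6.51 CPM in HK2. SFTPC and SFTPA1 were at 0 throughout. AGER had 131, 101 and 81 counts in the metastatic line and 88, 98 and 100 in HK2. In HK2 FOXJ1 had 51 to 73 counts and NAPSA 55 to 86, and both had at most 2 in a metastatic library.

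The first question was how far the lines stand apart. With edgeR's quasi-likelihood test and Benjamini-Hochberg adjustment, 10840 genes, 85.2% of those tested, had an adjusted p under 0.05. In the metastatic line 5336 of them (41.9%) were higher and 5504 (43.3%) lower. At least 2-fold apart were 1295 genes (10.2%) on the higher side and 1987 (15.6%) on the lower side, whereas after quantile normalization the split turned round, with 1939 higher and 1699 lower. The median log2 fold change was -0.01, with quartiles of -0.57 and 0.47. The median standard error was 0.056 and the common coefficient of variation between cultures 3.93%, so differences far below 2-fold passed the test.

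Because so small a difference passes, absence of a call was not used as evidence of equality. A gene was called equal only if an equivalence test put its fold change within 1.2-fold in either direction at an adjusted p under 0.05. By that test 1585 genes (12.5%) sat at equal levels. Of these, 407 also passed the test for a difference, that is, their difference was detected and small, so counts of higher, lower and equal members given below can overlap. Another 703 genes were neither called different nor equal. The 3 libraries of the metastatic line did not overlap the 3 of HK2 in 10830 genes (85.1%).

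**Figure D1:**
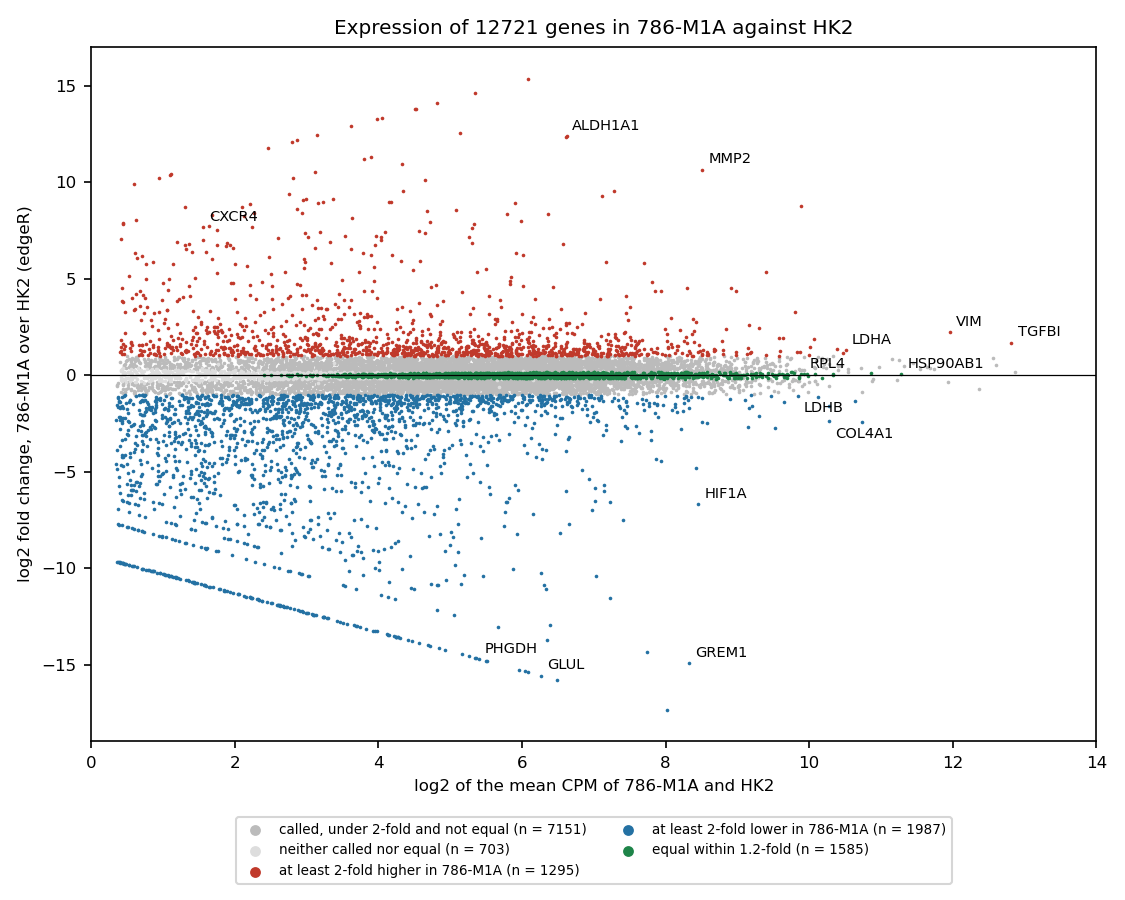
Log2 fold change of the metastatic line, given by its own name on the axes, over HK2 against the log2 of the mean CPM of the lines, 1 point for each of 12721 genes, colored by call. The 1585 equal genes form the band at 0, and points on the sloping lower edge are genes with 0 counts in every metastatic library, whose fitted values depend on the prior count.

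Losses were deeper than gains. At 32-fold or more, 549 genes were lower and 129 higher in the metastatic line. There were 167 genes with 0 counts in every metastatic library and 16 with 0 counts in every HK2 library. With at most 3 counts allowed per library, the numbers were 335 and 58. These genes passed the minimum only through the line where they were high, so their calls and large sizes are no separate evidence of a difference. The plot of all genes shows the lower edge that these silent genes form. Unless a sentence says otherwise, every gene named below as higher or lower passed the edgeR test with an adjusted p of at most 0.0015, with 3 libraries per line.

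Among genes with at least 10 counts in all 6 libraries, MMP2 rose most. MMP2 encodes a secreted gelatinase that cleaves basement membrane collagen, and it lies on chromosome 16, 55478830 to 55506691 (GRCh38). Its level was 748, 715 and 725 CPM in the metastatic line and 0.479, 0.37 and 0.494 CPM in HK2, a 1617-fold difference (log2 fold change 10.66 ± 0.07 SE, edgeR adjusted p = 7.7e-29). NEFL, the light chain of neurofilaments, was at 291, 266 and 271 CPM against 0.383, 0.493 and 0.408 CPM. COL6A3, a chain of collagen VI in the pericellular matrix, was at 1682, 2055 and 1926 CPM against 4.05, 4.14 and 4.51 CPM. Every metastatic culture stood far above every HK2 culture in all of them. IGFBP1 (log2 fold change 8.38), which binds insulin-like growth factors, and NCAM1 (8.35), a neural adhesion molecule also found in the developing kidney, followed, with LPCAT2 (7.98), an enzyme of phospholipid remodeling, and GALNT3 (7.17), which starts O-linked glycans. UGT1A6 belongs to the same group at 7.65 but shares exons with the other genes of the UGT1A locus, so its own level is uncertain.

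The deepest falls on the same terms were in surface and matrix genes. HS3ST3A1 and its neighbor HS3ST3B1, which encode heparan sulfate sulfotransferases, were 294-fold and 206-fold lower in the metastatic line. HS3ST3A1 was at 118, 121 and 127 CPM in HK2 and 0.474, 0.314 and 0.451 CPM in the metastatic line. COL5A1, a chain of the fibril-forming collagen V, was at 187, 173 and 192 CPM in HK2 and 0.614, 0.681 and 0.636 CPM in the metastatic line. THBS2, a matricellular thrombospondin, had a log2 fold change of -7.82, F2RL1, a protease-activated receptor, of -7.70, and GPRC5A, a membrane receptor of epithelia, of -7.48. SLCO2A1, which imports prostaglandins, stood at -7.19 and the small LIM protein gene CRIP1 at -7.09.

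Some genes were on in 1 line and at the floor in the other. On the metastatic side, FLG, best known as the filaggrin of skin, had 6340, 8663 and 7182 counts against 2, 1 and 1 in HK2, a ratio of 5876-fold (95% counting interval 2294 to 21567). ALDH1A1, a retinaldehyde dehydrogenase, had 7053, 7447 and 7358 counts against 1, 1 and 2, a ratio of 5789-fold (95% counting interval 2261 to 21249). SLC17A9, the vesicular nucleotide transporter, and EMC10, a subunit of the membrane protein insertase of the endoplasmic reticulum, had 0 counts in every HK2 library and were at least 1732-fold and 1043-fold higher in the metastatic line, with the floor set at 3 counts per library. EMC10 overlaps the antisense gene GARIN5A, and the strand setting of the counting is not given in the sources used here. ITIH5, which binds hyaluronan, had at most 1 count in an HK2 library, and CYTIP had 0 in all of them.

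On the side of HK2, CYP24A1, the enzyme that breaks down active vitamin D in the tubule, had 16553, 19879 and 24961 counts against 0 in every metastatic library, at least 6432-fold. GREM1, a secreted inhibitor of bone morphogenetic proteins, had 19383, 25678 and 31331 counts against 0, 1 and 1. NPNT, which encodes nephronectin of the kidney basement membrane, had 14026, 17387 and 19101 counts against 1, 0 and 1. The cell-cycle inhibitor gene CDKN2A had 5228, 7450 and 8654 counts against 0 in each, at least 2219.5-fold, and its neighbor CDKN2B had 697, 903 and 1001 against 0. CYBRD1, an iron reductase, and DKK1, a secreted inhibitor of WNT signaling, had at most 1 count in a metastatic library. In each of these genes the 786-O libraries too were at 5 counts or fewer per library, near the floor as in the metastatic line.

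Of the genes at least 2-fold apart, those with the highest counts were matrix, cytoskeletal and metabolic genes. TGFBI, a secreted matrix protein induced by TGF-beta, was at 11269, 10720 and 11136 CPM in the metastatic line and 3409, 3296 and 3506 CPM in HK2 (log2 fold change 1.70 ± 0.032 SE). VIM, the intermediate filament of mesenchymal and many cultured cells, which has an antisense gene overlapping it, was 4.73-fold higher, at 6669, 6469 and 6595 CPM against 1336, 1410.2 and 1422 CPM. LDHA, which makes lactate from pyruvate, was 2.47-fold higher, and LDHB, its partner of oxidative tissues, 2.08-fold lower. CTSZ, a lysosomal protease, TPM4, a tropomyosin of stress fibers, and FLNC, an actin cross-linker, were 2.27-, 2.59- and 3.65-fold higher. On the other side stood COL4A1 (log2 fold change -2.38 ± 0.038 SE) and COL4A2 (-1.59), the main chains of basement membrane collagen, at 2159, 1995 and 2087 CPM in HK2 and 396, 408 and 398 CPM in the metastatic line for COL4A1. FTL, the light chain of the iron store ferritin, was 2.19-fold lower.

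**Figure D2:**
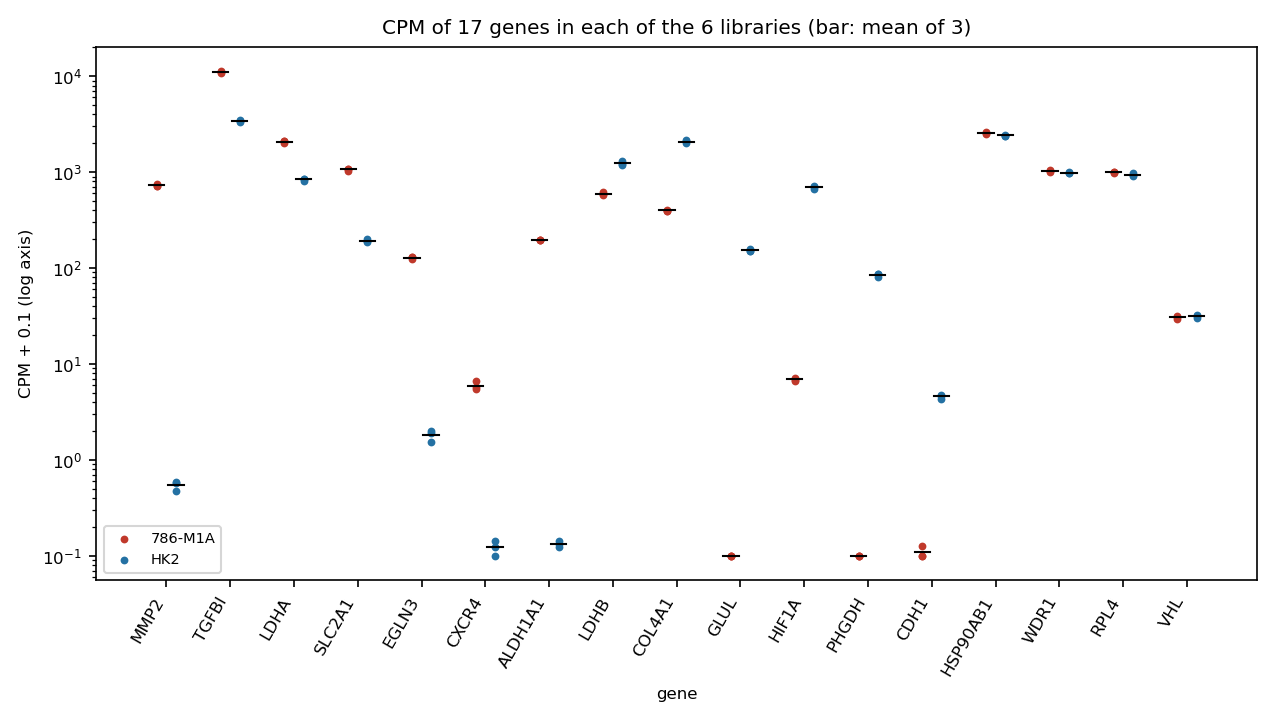
CPM plus 0.1, on a log axis, of 17 genes in each of the 6 libraries, with the metastatic line in red, HK2 in blue and a bar at the mean of 3. The cultures of a line lie nearly on top of each other, genes such as MMP2 and PHGDH separate the lines by orders of magnitude, and HSP90AB1, WDR1, RPL4 and VHL sit side by side.

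To see which pathways separated the lines, 53 gene lists with at least 5 members tested were described by their counts and by the median log2 fold change of their members. Each is read against the genes tested as a whole, of which 10.2% were at least 2-fold higher, 15.6% at least 2-fold lower and 12.5% equal, with a median of -0.01. Lists were chosen with earlier results of these data known, so their medians are descriptions. The medians did not change when genes at 0 in 1 line were set to their lower bound. This is no check of the medians, since at most 2 members of a list were concerned and each kept its sign. Of the 53 lists, 38 kept the sign of their median under every setting tried. The others, apart from the integrins, had medians close to 0. No setting took in list members below the minimum of counts. Without a filter on low counts the median was 0.587 against 0.576 for tubule function. For collagens and laminins it was -1.433 against -1.443. Whether members below the minimum would change a sign was therefore not tested. The size of the medians was less stable: in 43 of the lists it moved by more than the spread between replicates in some setting, most often with upper-quartile scaling (median of all genes -0.08), after quantile normalization (0.06) or when every library had to hold 10 counts of a gene.

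Epithelial junction genes had the lowest median of these 53 lists, -1.86 (quartiles -5.08 to -0.11), and -1.21 where every library had to hold 10 counts of a gene. Of 31 members tested, 20 were at least 2-fold lower, 3 at least 2-fold higher and 4 equal. DSP, the plakin that ties desmosomes to keratin, was at 293, 267 and 336 CPM in HK2 and 0.14, 0.105 and 0.053 CPM in the metastatic line. CDH3, P-cadherin, had 316, 395 and 490 counts in HK2 and 0 in every metastatic library, at least 126-fold. CDH1, E-cadherin, was low even in HK2, at 4.66, 4.27 and 4.56 CPM, and had at most 1 count in a metastatic library. Not all junction genes fell: PKP3, a desmosomal plakophilin, was 2.46-fold higher in the metastatic line, and CTNNA1, alpha-catenin, 2.03-fold.

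Keratins had a median of -0.81 over 9 members (-0.47 with that minimum of 10 counts), 4 of them at least 2-fold lower and none at least 2-fold higher. KRT7, of simple ductal epithelia, was at 247, 269 and 268 CPM in HK2 and 0.14, 0.236 and 0.186 CPM in the metastatic line. KRT17 was 173-fold lower. KRT8, the keratin with the most counts, differed less (log2 fold change -0.77 ± 0.043 SE) and overlaps KRT18 in antisense. KRT19 was 1.79-fold higher in the metastatic line. The loss of the epithelial genes was not mirrored by a gain across the mesenchymal list, in which 5 of 14 members were higher and 9 lower, median -0.46. VIM and ACTA2, smooth muscle actin, rose (2.24 and 2.33), whereas TWIST1, a transcription factor of epithelial-mesenchymal transition, had 266, 332 and 381 counts in HK2 and 0 in every metastatic library. CNN1, a smooth muscle calponin, was at 33.4, 34.9 and 33.2 CPM in HK2 and 0.0837, 0.105 and 0 CPM in the metastatic line. FN1, fibronectin, was 1.62-fold lower.

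Kidney identity genes moved both ways. Each of the 12 tubule function genes tested differed, as did 85.2% of all genes, with 7 higher and 5 lower, with a median of 0.58 and wide quartiles (-1.53 to 1.38). SLC13A3, the sodium-dicarboxylate carrier, had 253, 213 and 223 counts in the metastatic line and 2, 1 and 0 in HK2, a ratio of 243-fold (95% counting interval 82.9 to 1183). ANPEP, the brush border aminopeptidase N, was 11.6-fold higher in the metastatic line. MIOX, which breaks down inositol in the tubule, was 35.8-fold lower. HK2 was thus not uniformly the line with more tubule RNA.

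Transcription factors of the kidney lineage were higher in 8 of 13 members, at least 2-fold in 6, with a median of 0.65, which was 0.37 with the minimum of 10 counts in every library and 1.03 after quantile normalization. WT1, of the early nephron and podocyte, had 1645, 1723 and 1779 counts in the metastatic line and 0 in every HK2 library, at least 589.9-fold. MECOM was at 35.4, 40.5 and 39.6 CPM against 5.43, 6.61 and 5.65 CPM. LHX1, of the early renal epithelium, was 4.43-fold lower and OSR2 3.08-fold lower. PAX8, which marks renal epithelium and ccRCC, was called equal at 194, 179 and 177 CPM in the metastatic line and 164, 162 and 173 CPM in HK2 (equivalence adjusted p = 0.038 from edgeR). That call did not hold without metastatic replicate 2 or 3 or without HK2 replicate 1 or 3, where the same p was 0.15, 0.17, 0.070 and 0.21. In the HOX clusters, whose genes record position along the body axis, 21 of 30 members were higher and 5 lower, median 0.69, with HOXC8 (3.44) and HOXA2 (2.99) highest and HOXA7 (-7.80) and HOXB13 (-7.30) lowest. These sizes depended on the setting. Over the settings tried HOXC8 lay between 3.31 and 6.64, HOXA2 between 2.89 and 4.45, HOXA7 between -11.05 and -6.24 and HOXB13 between -8.18 and -5.14.

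The matrix separated the lines strongly. Of 29 collagen and laminin genes, 16 were at least 2-fold lower in the metastatic line and 2 at least 2-fold higher, with a median of -1.44. COL11A1, a fibrillar collagen, had 1324, 1477 and 1745 counts in HK2 and 0 in every metastatic library. LAMC3, a laminin chain, was at 101, 99.8 and 103 CPM in HK2, with at most 1 count in a metastatic library. COL6A3 and COL18A1 (1.04), the source of endostatin, were the exceptions above 2-fold. When only genes with at least 10 counts in every library were kept, which drops the silent ones, the median of the list was -0.63.

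Integrins, the receptors for this matrix, split into losses and gains. Of 17 subunits, 9 were at least 2-fold lower, 3 at least 2-fold higher and 1 equal. ITGB4, the partner of alpha 6 in hemidesmosomes, was at 23.4, 20 and 20.3 CPM in HK2 and 1.14, 0.576 and 0.795 CPM in the metastatic line, and ITGAX, a leukocyte integrin, was 31.6-fold lower. ITGB5 and ITGB8, which pair with alpha V, were 4.01- and 2.87-fold higher, and ITGB1, the common beta chain, 1.32-fold. The median of the list was -1.05, but it was 0.04 with the minimum of 10 counts in every library, so no direction is given for the family.

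Matrix proteases and their inhibitors were divided in the same way, with 7 of 32 at least 2-fold higher and 10 at least 2-fold lower, median -0.31. MMP2 and ADAM9, a membrane-bound sheddase (4.36), were the largest gains. MMP1, the interstitial collagenase, was at 83, 101 and 90.3 CPM in HK2 and 1.73, 1.62 and 1.64 CPM in the metastatic line, and ADAMTS12, a secreted protease of cartilage matrix, was 70.9-fold lower. MMP2 and MMP1 thus moved in opposite directions.

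Signals between cells changed gene by gene. Of 38 growth factor receptors and ligands, 8 were at least 2-fold higher and 13 at least 2-fold lower, with a median of -0.42. PDGFRB, the platelet-derived growth factor receptor of pericytes and stromal cells, was at 281, 283 and 286 CPM in the metastatic line and 5.55, 4.96 and 4.36 CPM in HK2. In 786-O it stood at 2.29 to 3.01 CPM, so this rise separated the metastatic line from its parent as well. INSR, the insulin receptor, had 630, 703 and 902 counts in HK2 and 0 in every metastatic library, at least 235-fold. ERBB3, of the epidermal growth factor receptor family, was 62.1-fold lower, and MET, the hepatocyte growth factor receptor, 1.26-fold higher. Over the settings tried the log2 fold change of ERBB3 lay between -6.73 and -4.45.

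In the TGF-beta and BMP pathway 12 of 34 members were higher and 18 lower, with 6 equal and a median of -0.22. INHBB, a subunit of activin B, had 1054, 1176 and 1103 counts in the metastatic line and at most 1 in an HK2 library. LTBP1, which holds latent TGF-beta in the matrix, was 11.3-fold higher. BMP4 had 231, 255 and 315 counts in HK2 and at most 1 in a metastatic library. Chemokines and cytokines lay far apart in both directions, with 7 of 27 at least 2-fold higher, 8 at least 2-fold lower and 5 equal. CXCL8, the neutrophil chemokine interleukin-8, was at 229, 266 and 277 CPM in HK2 and 2.51, 2.96 and 3.1 CPM in the metastatic line, and IL6R was 36-fold lower. The receptors of CXCL12 went the other way: ACKR3 had 989, 1066 and 1065 counts in the metastatic line and at most 1 in an HK2 library, and CXCR4 had 232, 204 and 215 against 0, 1 and 2. IL32 was 2.76-fold higher.

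Antigen presentation by MHC class I was higher in 14 of 21 members and at least 2-fold higher in 5, with none at least 2-fold lower and a median of 0.28. B2M, the light chain shared by all class I molecules, was at 1277, 1255 and 1274 CPM in the metastatic line and 535, 574 and 546 CPM in HK2, and HLA-C was 2.49-fold higher, although reads of HLA genes can be split between similar alleles and genes. PSME2, of the interferon-induced proteasome activator, was 1.39-fold lower. Interferon-stimulated genes had a median of 0.46, with 26 of 39 higher, 15 of them at least 2-fold, and 4 at least 2-fold lower; the median was 0.28 with the minimum of 10 counts in every library and 0.76 after quantile normalization. XAF1, a pro-apoptotic protein, had 114, 110 and 118 counts against at most 1, and OAS2, a sensor of double-stranded RNA, 182, 208 and 163 against 1, 2 and 3. HERC5 and IFI44L were 10- and 6.3-fold lower, so the list did not move as 1 block.

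HIF targets of ccRCC had the highest median of these 53 lists, 0.97 (quartiles 0.17 to 2.74), except after quantile normalization, where HOX cluster genes stood at 1.21 and HIF targets at 1.15. Of 32 members tested, 23 were higher, 16 of them at least 2-fold, 7 lower and 1 equal. EGLN3, a HIF prolyl hydroxylase that is itself a HIF target, was at 131, 124 and 129.8 CPM in the metastatic line and 1.79, 1.9 and 1.44 CPM in HK2, a 75.7-fold difference (log2 fold change 6.24 ± 0.11 SE). SLC2A1, the glucose transporter GLUT1, was at 1089.6, 1070.3 and 1039.9 CPM against 193, 185 and 199.8 CPM. BHLHE40, a repressor induced by hypoxia, was at 292, 289 and 292 CPM against 73.9, 72.3 and 75 CPM. LOX, which cross-links collagen, and MXI1, an antagonist of MYC, went the other way at -1.66 and -0.84.

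Of 8 HIF subunits and hydroxylases, 3 were higher, 4 lower and 2 equal. HIF1A was at 699, 675 and 715 CPM in HK2 and 6.78, 7.04 and 6.6 CPM in the metastatic line, 102-fold lower (log2 fold change -6.68 ± 0.051 SE), and it overlaps the antisense gene HIF1A-AS1. EPAS1, which encodes HIF2A, was at 319, 283 and 303 CPM in HK2 and 119.5, 128 and 122 CPM in the metastatic line (log2 fold change -1.29 ± 0.043 SE). ARNT2, a partner subunit, was 3.59-fold higher. VHL RNA was called equal, at 31.4, 30.6 and 29.4 CPM in the metastatic line and 32.4, 31.4 and 30.3 CPM in HK2 (equivalence adjusted p = 0.0025 from edgeR). An RNA level does not say whether the protein is made or works.

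BHLHE40 is shown with its promoter, a choice made after its values were seen, because it is the most raised HIF target whose window holds the letters ACGTG, the core of the site that HIF binds. The sequence is the 250 bases before the RefSeq start in GRCh38.p14, in lower case with ACGTG on either strand in capitals.
BHLHE40, chr3:4979187-4979436 (+ strand): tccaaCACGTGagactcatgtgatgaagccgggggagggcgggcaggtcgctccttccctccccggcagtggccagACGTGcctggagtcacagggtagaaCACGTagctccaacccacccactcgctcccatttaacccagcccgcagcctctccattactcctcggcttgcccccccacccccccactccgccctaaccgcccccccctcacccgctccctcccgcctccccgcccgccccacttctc
The window holds 4 matches counted over both strands, of which the palindrome CACGTG gives 2. Among 24 HIF targets with a RefSeq promoter, 12 held the core in this window, against 23.9% of the promoters of all genes tested that were matched. Among the 11 of them that were at least 2-fold higher, however, 3 did. A match is only a run of letters, and the absence of a match concerns this window alone.

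Glycolysis was higher in 15 of 24 members and lower in 6, with 7 at least 2-fold higher, 2 at least 2-fold lower and 3 equal (median 0.31). After quantile normalization its median was 0.06, the same as that of all genes. ALDOC, an aldolase otherwise typical of brain, rose 7.22-fold from a low level, at 3.43, 2.91 and 3.07 CPM in the metastatic line and 0.543, 0.296 and 0.473 CPM in HK2. LDHA rose and LDHB fell, as above. PFKFB2, which sets the level of the activator of phosphofructokinase, was 3.54-fold lower. GAPDH was 1.28-fold lower (log2 fold change -0.36 ± 0.033 SE) and PGK1 equal, at 727, 715 and 713 CPM in the metastatic line and 719, 734 and 709 CPM in HK2. The steps of the pathway therefore did not share a direction. In the pentose phosphate pathway 4 of 10 members were higher and 4 lower, with PRPS1 and PRPS2, which make the activated ribose for nucleotides, at least 2-fold lower (-1.29 and -1.17) and the transketolase gene TKT equal (0.03).

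The TCA cycle and respiratory chain lists had medians near 0, although most of their members were called different, as were 85.2% of all genes. TCA cycle genes were higher in 12 and lower in 12 of 29 members, with 5 equal and a median of -0.03. Only ME3, a mitochondrial malic enzyme (-4.02), and ACO1, the cytosolic aconitase (-1.04), were more than 2-fold apart. Complex I subunits had a median of 0.05, with 9 of 37 equal and NDUFA12 alone over 2-fold (-1.06). Of 41 subunits of complexes II to V and cytochrome c, 9 were equal and COX7C alone was over 2-fold (-1.26). Set beside these, fatty acid oxidation leaned lower, with 17 of 31 members lower and 9 higher, median -0.23. PPARGC1A, the coactivator PGC-1alpha that drives mitochondrial gene expression, was at 68.2, 63.5 and 65.5 CPM in HK2 and 0.112, 0.209 and 0.265 CPM in the metastatic line. ACAA2, a mitochondrial thiolase, was 9.3-fold lower, ACSL1, which activates fatty acids, 7.69-fold higher, and HADHA, the alpha subunit of the trifunctional protein, equal at 249, 257 and 253 CPM in the metastatic line and 252, 261 and 252 CPM in HK2.

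Lipid synthesis held a few large differences among many small ones. FADS2, the delta-6 desaturase, was 23.2-fold higher at 649, 575 and 596 CPM against 26, 26.2 and 26.1 CPM, and it overlaps FADS1 on the other strand. FABP5, a fatty acid carrier, was 4.86-fold higher. SCD5, a desaturase, had 825, 1042 and 1190 counts in HK2 and 0 in every metastatic library. Of 24 cholesterol synthesis genes 12 were higher and 8 lower, median 0.15, with INSIG1, the sterol sensor, 2.89-fold higher.

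Branched-chain amino acid (BCAA) degradation, which the study followed, was lower in 26 of 45 members and higher in 11, with 5 at least 2-fold lower, 3 at least 2-fold higher and 8 equal, and a median of -0.32. BCAT1, the cytosolic transaminase that starts the pathway, was at 192, 189.7 and 196 CPM in HK2 and 110.1, 118 and 119 CPM in the metastatic line (log2 fold change -0.74 ± 0.039 SE), and BCAT2, the mitochondrial one, had a log2 fold change of -0.41. BCKDK, the kinase that restrains the next step, stood at -0.76 and MMUT, the mutase at the end of the valine and isoleucine branches, at -0.93. ABAT, an aminotransferase, was 39.3-fold lower. IVD, the dehydrogenase of the leucine branch, was equal, at 39.6, 41.3 and 38.7 CPM in the metastatic line and 42.5, 43 and 41.7 CPM in HK2, except with upper-quartile scaling (equivalence adjusted p = 0.087). The largest gain was ALDH2, the mitochondrial aldehyde dehydrogenase, at 34, 29.6 and 28.8 CPM in the metastatic line and 0.255, 0.345 and 0.258 CPM in HK2, 106-fold higher (log2 fold change 6.73 ± 0.13 SE), with AOX1 next at 2.33. The short- and branched-chain dehydrogenase gene ACADSB was higher (0.55) and ACADM lower (-0.23). The study also measured proteins of this pathway, and reported BCAT1 protein as raised, shown for 786-O against HK2, and IVD and MMUT as suppressed. The values here are RNA, in which BCAT1 was lower and IVD equal.

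Glutamine enzymes held a complete loss of counts in 1 gene. GLUL, which makes glutamine from glutamate and ammonia, lies on chromosome 1, 182378098 to 182391790. It had 4903, 6119 and 7088 counts in HK2 and 0 in every metastatic library, at least 1902-fold with the floor of 3 counts. Over the 20 members of the list 11 were higher and 8 lower, median 0.10, and GOT1 and GOT2, the aspartate transaminases, differed by -0.22 and -0.22. At the protein level the study reported GOT1 as higher in ccRCC cells and GOT2 as suppressed.

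PHGDH, the first enzyme of serine synthesis, had 2697, 3490 and 3749 counts in HK2 and 0 in every metastatic library, at least 1045-fold, while PSAT1, the next enzyme, was 2.82-fold higher at 118, 116 and 122 CPM against 42.2, 41.7 and 42.4 CPM. CBS, which draws serine into cysteine synthesis, was 8.01-fold lower. AHCY, the hydrolase of the methyl cycle, was equal (0.06). Over all 24 members, 9 were higher, 11 lower and 4 equal.

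In the urea cycle and polyamine list 9 of 21 members were higher and 11 lower. SLC7A2, a transporter of arginine, was 37.3-fold lower, and AGMAT, which hydrolyzes agmatine, 35.1-fold. ARG2, the mitochondrial arginase, was at 28.5, 27.8 and 28.1 CPM in HK2 and 6.56, 6.49 and 6.23 CPM in the metastatic line (log2 fold change -2.13 ± 0.069 SE). CPS1, which makes carbamoyl phosphate, was 2.92-fold higher. ASS1, which joins citrulline and aspartate on the way to arginine, was at 6.86, 8.62 and 8.22 CPM in the metastatic line and 10.4, 11 and 10.5 CPM in HK2 (log2 fold change -0.43 ± 0.092 SE, edgeR adjusted p = 0.00021), and all 3 HK2 cultures were above all 3 of the metastatic line; after quantile normalization the difference no longer passed (log2 fold change -0.11, limma adjusted p = 0.61). ASL, the next enzyme, was 1.2-fold higher.

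Amino acid transporters lay far apart one by one, with 6 of 28 at least 2-fold higher, 7 at least 2-fold lower and 4 equal, although their median was 0.07. SLC7A5, the carrier of leucine and other large neutral amino acids, was at 1005, 1000.2 and 941 CPM in the metastatic line and 158, 156 and 171 CPM in HK2 (log2 fold change 2.60 ± 0.044 SE), and SLC3A2, its partner chain, was 2.56-fold higher. SLC1A1, a glutamate carrier, was 8.14-fold higher and SLC6A9, a glycine carrier, 9.92-fold. SLC6A15, a carrier of neutral amino acids, had 1865, 2421 and 2912 counts in HK2 and 0 in every metastatic library, and SLC38A5 was 134-fold lower.

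The study named 26 genes as metastatic markers, transcription factors, or BCAA and arginine genes. They were chosen in part on these samples, so their directions are not independent evidence. Here 11 were higher, 13 lower and 3 equal, PAX8 being both called higher and equal. Among the metastatic markers CXCR4 and CYTIP had 0 or few counts in HK2, as given above. SLAMF8, a surface receptor of the SLAM family, was at 8.23, 8.96 and 9.25 CPM in the metastatic line and 0.16, 0.0987 and 0.236 CPM in HK2. LTBP1 was at 14.4, 18.3 and 16.7 CPM against 1.88, 1.36 and 1.23 CPM. All 4 rose against HK2. Of the transcription factors EPAS1 and MAX (-0.79) were lower and PAX8 equal. ASNS, which makes asparagine, was 1.42-fold higher. AKR1B1, aldose reductase, was equal at 612, 572 and 586 CPM in the metastatic line and 581, 597 and 542 CPM in HK2.

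**Figure D3:**
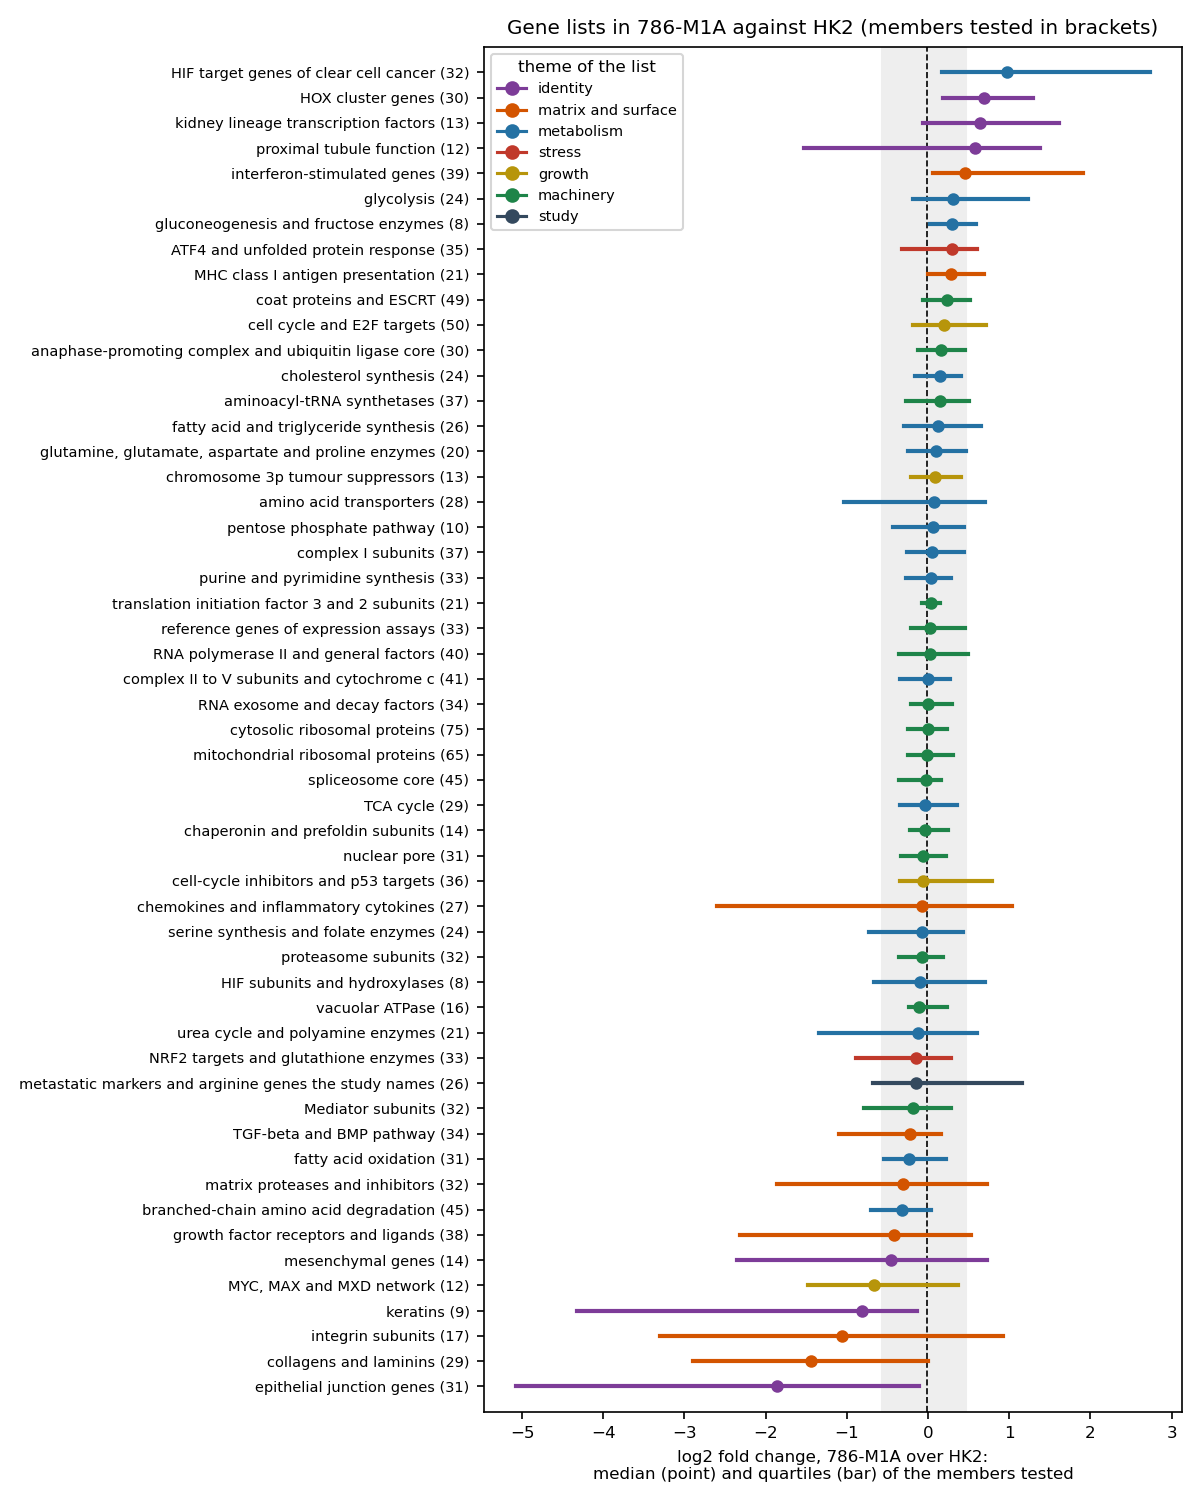
Median (point) and quartiles (bar) of the log2 fold change of the metastatic line over HK2 for the members of each of 53 gene lists, colored by theme, with the number of members tested in brackets. The dashed line and grey band are the median and quartiles of all 12721 genes; in this fit HIF targets lie highest at 0.97 and epithelial junction genes lowest at -1.86.

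Redox and stress genes separated the lines through single members. Of 33 NRF2 targets and glutathione enzymes, 7 were at least 2-fold lower and 2 at least 2-fold higher, median -0.14. GPX3, the secreted glutathione peroxidase of the tubule, was at 109, 114 and 112 CPM in HK2 and 1.28, 1.39 and 1.46 CPM in the metastatic line, 80.9-fold lower. AKR1C3 was 9.1-fold lower and ABCC3, an exporter of conjugates, 3.99-fold higher. GSTM4 had a log2 fold change of 6.61, but its reads can be shared with the near-identical genes of the GSTM cluster. In the ATF4 and unfolded protein response list 20 of 35 were higher and 10 lower, median 0.29. DDIT4, an inhibitor of mTORC1, rose 4.39-fold, and GDF15, a stress cytokine, was 4.44-fold lower.

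Of 50 cell cycle and E2F targets, 32 were higher and 14 lower, 7 were at least 2-fold higher and 10 equal. Their median was 0.20, and 0.09 after quantile normalization against 0.06 for all genes. CCND1, cyclin D1, was at 457, 514 and 507 CPM in the metastatic line and 96, 95.4 and 104 CPM in HK2 (log2 fold change 2.32 ± 0.048 SE), while CCND2, cyclin D2, had 506, 672 and 835 counts in HK2 and 0 in every metastatic library. PLK1, a mitotic kinase, was 2.44-fold higher, and TOP2A, the topoisomerase of dividing cells, was equal at 773, 825 and 834 CPM in the metastatic line and 759.6, 751 and 778 CPM in HK2. Among inhibitors and p53 targets 17 of 36 were higher and 17 lower. Against the silence of CDKN2A and CDKN2B, RRM2B, a p53-induced subunit of ribonucleotide reductase, was 4.74-fold higher and the death receptor gene FAS 4.28-fold, although FAS overlaps ACTA2 in antisense. PLK2 was 2.97-fold lower.

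The MYC network was lower in 8 of 12 members, with a median of -0.66. MYC was at 269, 267 and 288 CPM in HK2 and 63.6, 62 and 57.5 CPM in the metastatic line (log2 fold change -2.17 ± 0.045 SE), MYCL at -2.03 and MAX at -0.79. Over the settings tried MYCL lay between -2.09 and -0.90. MXD3 and MAZ were higher, 2.82- and 2.28-fold. The arm of chromosome 3 that ccRCC commonly loses was represented by 13 tumor suppressor genes, of which 4 were equal, VHL among them, 6 higher and 4 lower (median 0.09). FBLN2, a basement membrane fibulin, was 291-fold lower and RASSF1 2.45-fold higher.

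The second question was which genes sit at equal levels. The equal genes with the most counts were HSP90AB1, TMSB10, GNAS, CALR, MYL6, HSPD1, MSN, WDR1, RPL4, SEPTIN2, RPS24 and NUCKS1, which cover chaperones, actin and membrane-cortex proteins, a G protein subunit and ribosomal proteins. MYL6 and NUCKS1 also passed the test for a difference in every setting. Both were slightly lower in the metastatic line, with log2 fold changes of -0.32 to -0.08 and -0.26 to -0.11 over the settings. HSP90AB1, a cytosolic chaperone, was at 2561, 2484 and 2624 CPM in the metastatic line and 2392, 2462 and 2398 CPM in HK2 (log2 fold change 0.08 ± 0.031 SE, equivalence adjusted p = 0.00032 from edgeR). CALR, the calreticulin of the endoplasmic reticulum, was at 1339, 1232 and 1277 CPM in the metastatic line and 1271, 1299 and 1288 CPM in HK2, with overlapping libraries. WDR1, which helps to disassemble actin filaments, was at 1044, 1021 and 1011 CPM and 970.3, 1005 and 984 CPM. MSN, which links actin to the membrane, was at 985, 1012 and 1003 CPM and 1032, 965 and 1067 CPM. For TMSB10 the equality rested on single libraries: it did not hold without metastatic replicate 2 or 3 or HK2 replicate 2 or 3, where the equivalence adjusted p was 0.10, 0.14, 0.11 and 0.063. For MYL6 it did not hold without HK2 replicate 3 (0.054). After quantile normalization of log2 counts 7 of these 12 were no longer equal, and with upper-quartile scaling 2 were not.

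Equal genes were frequent in several lists of the core machinery of the cell, though not in all. Of 21 subunits of the translation initiation factors 3 and 2, 11 were equal (52.4%) and none was at least 2-fold apart. EIF3C, with 557, 545 and 540.0 CPM in the metastatic line and 521, 539 and 545 CPM in HK2, is one of them, although its reads can be shared with a near-identical copy. The spliceosome core had 17 equal of 45 (37.8%), the proteasome 11 of 32 (34.4%), mitochondrial ribosomal proteins 21 of 65 (32.3%), the vacuolar ATPase 5 of 16 (31.2%), cytosolic ribosomal proteins 22 of 75 (29.3%), chaperonin and prefoldin 4 of 14 (28.6%), and coat and ESCRT proteins 12 of 49 (24.5%). All of these shares are above the 12.5% over all genes tested, and their medians lay between -0.11 and 0.23. An equal call needs a small standard error, which depends on the counts of a gene. The shares were not compared with those of other genes of like abundance, so the part of abundance in them was not tested. Other machinery lay nearer to the share over all genes, with 6 equal of 40 for RNA polymerase II and its general factors, 5 of 32 for Mediator (15.6%) and 6 of 37 for aminoacyl-tRNA synthetases (16.2%). Outside the machinery, tumor suppressors of chromosome 3p (4 of 13, 30.8%), HIF subunits and hydroxylases (2 of 8) and complex I (9 of 37, 24.3%) had shares of the same order. For ribosomal proteins, pseudogene copies make the assignment of reads uncertain.

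Even within the machinery single parts stood out. NUP210, a nuclear pore membrane protein, was at 116, 96.6 and 113 CPM in HK2 and 0.921, 1.07 and 1.4 CPM in the metastatic line, 95.3-fold lower, while 7 of the 31 pore genes were equal. POLR2L, a small subunit shared by the RNA polymerases, was 6.28-fold higher, and CUL4B, a ubiquitin ligase scaffold, 3.53-fold lower. CARS2, the mitochondrial cysteinyl-tRNA synthetase, stood at 2.03. RPS28 and RPS29 were the only ribosomal protein genes at least 2-fold lower (-1.21 and -1.05). In the coat and ESCRT list STAM2 (1.81) and COPZ2 (1.73) were raised most.

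Genes used as references in expression assays included both equal and differing ones. Of 33 tested, 5 were equal (15.2%, against 12.5% over all genes tested): PGK1, CALR, RPL13A, PPIA and VPS29. PPIA was at 777, 723 and 733 CPM in the metastatic line and 697, 767 and 724 CPM in HK2, and RPL13A was at 479, 442 and 432 CPM and 435, 465 and 438 CPM. The other 28 differed, 16 higher and 12 lower in the metastatic line, a share close to the 85.2% over all genes tested, and B2M and TFRC, the transferrin receptor (-1.23), were at least 2-fold apart. TBP was 1.32-fold lower and GAPDH 1.28-fold. ACTB was 1.13-fold higher (log2 fold change 0.18 ± 0.033 SE) and narrowly missed the equivalence call (adjusted p = 0.064 from edgeR); after quantile normalization it was lower in the metastatic line, at -0.43.

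**Figure D4:**
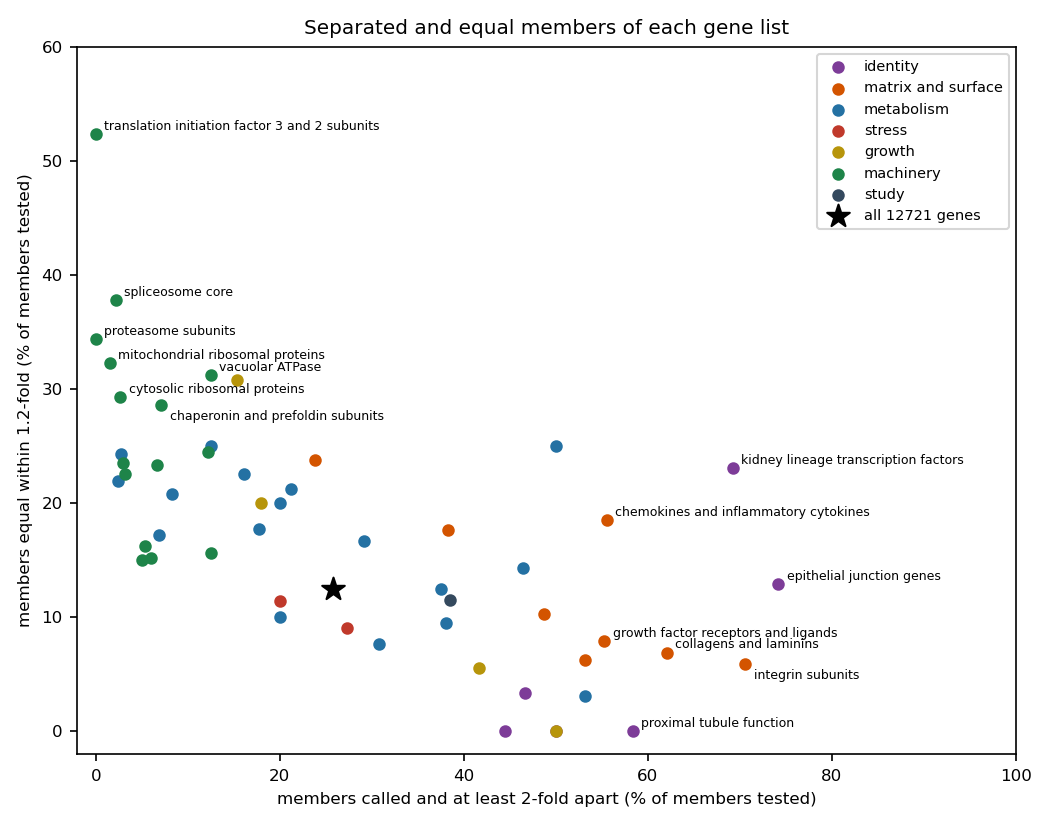
For each of 53 gene lists, the share of members tested that were called and at least 2-fold apart (horizontal axis) against the share equal within 1.2-fold (vertical axis). The star marks all 12721 genes; several machinery lists lie at the upper left, up to 52.4% equal, and junction, integrin and matrix lists at the lower right.

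Promoter sequence was read for 10214 of the 12721 genes, those with a RefSeq entry, as the 250 bases before the start. The features of the classes are a description. Median GC content was 65.2% over all of them, 67.6% for genes at least 2-fold higher, 65.2% for those at least 2-fold lower and 64.4% for equal genes. A low observed-over-expected ratio of CpG dinucleotides, under 0.4, was found in 9.68% of all promoters, in 16.4% of the higher, 18.8% of the lower and 5.46% of the equal genes. It was found in 18 of the 40 promoters of genes with at most 3 counts in every HK2 library and in 40 of the 248 of genes with at most 3 counts in every metastatic library (16.1%).

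The letters TGACTCA, the site of AP-1, were in 2.53% of all these promoters, 3.31% of the higher, 3.58% of the lower and 1.18% of the equal. The TATA box letters TATAAA were in 4.96% of all, 6.42% of the higher, 6.57% of the lower and 4.13% of the equal, and CCAAT in 35.1%, 30.2%, 33.9% and 36.2%. The cyclic AMP response element TGACGTCA was in 2.93% of all, 2.28% of the higher, 2.21% of the lower and 2.80% of the equal. All motifs were searched on both strands, and ACGTG includes every CACGTG.

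To show the range, the windows of the first gene on in each line and of the first equal gene are printed, with every CpG in capitals (GRCh38.p14, 5′ to 3′ on the gene's strand).
FLG, chr1:152325240-152325489 (- strand): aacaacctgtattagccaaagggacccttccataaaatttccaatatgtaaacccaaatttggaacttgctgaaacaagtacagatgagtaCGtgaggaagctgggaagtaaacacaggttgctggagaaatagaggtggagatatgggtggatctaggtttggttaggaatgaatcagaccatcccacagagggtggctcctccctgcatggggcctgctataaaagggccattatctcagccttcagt
GREM1, chr15:32717754-32718003 (+ strand): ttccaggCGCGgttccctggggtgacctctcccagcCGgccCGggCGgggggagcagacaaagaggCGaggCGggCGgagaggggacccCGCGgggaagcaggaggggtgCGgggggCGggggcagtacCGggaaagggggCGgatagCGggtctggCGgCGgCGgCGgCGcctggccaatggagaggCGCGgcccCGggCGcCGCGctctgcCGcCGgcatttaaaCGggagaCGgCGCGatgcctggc
HSP90AB1, chr6:44245944-44246193 (+ strand): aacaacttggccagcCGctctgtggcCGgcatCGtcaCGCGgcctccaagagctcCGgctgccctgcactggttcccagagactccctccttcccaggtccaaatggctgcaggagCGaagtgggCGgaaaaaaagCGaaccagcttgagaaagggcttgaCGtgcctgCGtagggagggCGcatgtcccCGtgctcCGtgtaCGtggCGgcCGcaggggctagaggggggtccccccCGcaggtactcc
The window of FLG, silent in HK2, holds 1 CpG and 45.6% GC. That of GREM1, silent in the metastatic line, holds 32 CpGs and 76.8% GC, and that of HSP90AB1, equal in both, 18 CpGs and 65.6% GC. Methylation was not measured in these files.

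The fold changes were also summed up by chromosome, as a description. Genes on chromosome 14 had the lowest median, -0.68 over 409 genes (quartiles -1.09 to -0.32), and 87.0% of them were lower in the metastatic line. HIF1A and ARG2 are among them, while EGLN3, on the same chromosome, was among the largest gains. Chromosome 6 had a median of -0.40, chromosome X of -0.38 over 450 genes and chromosome 4 of -0.34, and chromosomes 21, 7 and 9 lay highest at 0.39, 0.29 and 0.28. In the metastatic line against 786-O the same genes of chromosome 14 had a median of 0.06, so this offset from HK2 was shared with the parental line; chromosome 15, by contrast, differed by -0.31 from 786-O. DNA copy number was not measured here, and its part in these offsets was not tested.

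**Figure D5:**
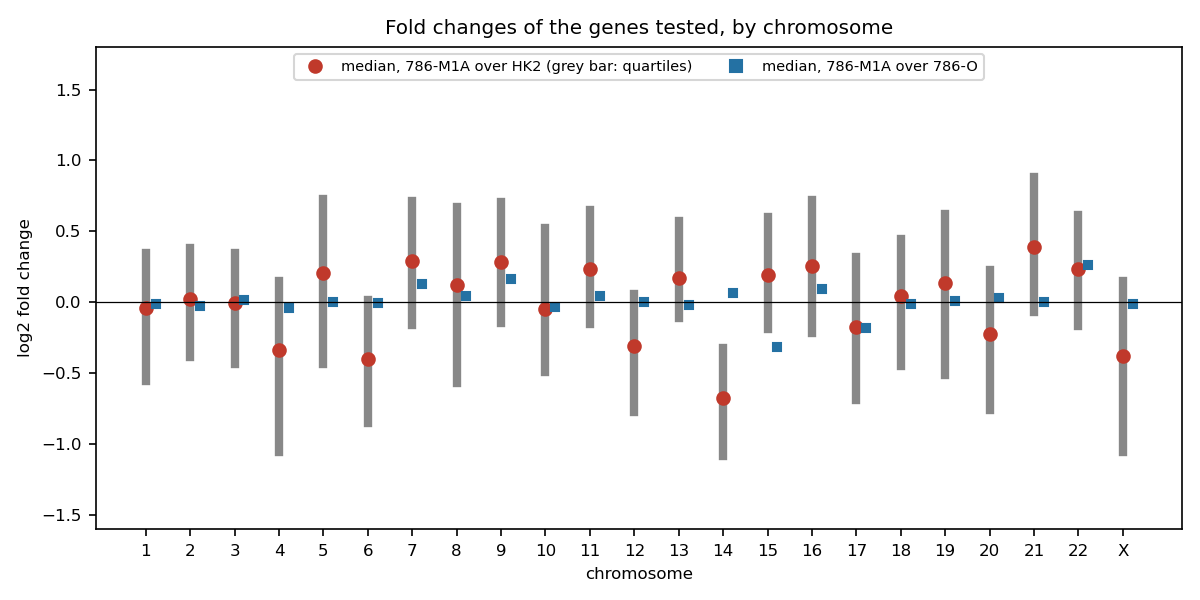
Median log2 fold change of the genes tested on each chromosome, for the metastatic line over HK2 (red points, with quartiles as grey bars) and for the metastatic line over 786-O (blue squares). Chromosome 14 lies lowest at -0.68 against HK2 and at 0.06 against 786-O.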

How the data were processed

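RNA-seq libraries of 3 human cell lines, HK2, 786-O and a metastatic derivative of 786-O, were taken as deposited, 3 libraries per line, with groups from the sample labels. The authors grew the cells in Plasmax, made stranded mRNA libraries for a NextSeq instrument and assigned reads to genes with featureCounts of Rsubread on GRCh38. The deposited values are their raw counts, whole numbers without normalization. The annotation version and the strand setting are not given in the sources used here. Counting without strand would mix a gene with an antisense partner, and such overlaps are stated beside some of the genes concerned. Exons of ACTA2, ARG2, CCND1, CCND2, CDKN2A, COL18A1, COL4A2, CTNNA1, CTSZ, DKK1, GREM1, LOX, MMP1, MYC, NCAM1, PLK1, POLR2L, THBS2, WT1 and others named here also overlap an antisense gene.

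All 9 libraries were fitted together in edgeR 4.0.16 (R 4.3.3) with TMM scaling and the robust quasi-likelihood test, and the contrast of the metastatic line with HK2 was read over genes whose mean count in these 6 libraries reached 50. Benjamini-Hochberg adjustment ran over all genes tested, at 0.05, and all tests were two-sided. Equality was called with a pair of one-sided tests against bounds of 1.2-fold, adjusted likewise. Log2 CPM used a prior count of 2. Where a line had 0 counts a lower bound was computed with a floor of 3 counts per library. Where it had at most 3 counts per library but not 0 in all, an exact 95% interval was computed, which is given for some of these genes. Floors and such intervals cover counting error only. Totals are given in the report. With 3 libraries a line, an exact permutation test of 1 gene cannot go below p = 0.1. No 2 libraries of a line agreed within sampling noise (chi-square per gene 3.06 to 8.50). The scripts were tested on simulated data.

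Members and gene lists were chosen with earlier results of these data known. Genes were named by rule: the 8 largest differences each way among genes with at least 10 counts in every library, the 6 highest each way among genes with at most 3 counts in the other line, the 6 with the highest counts each way among genes at least 2-fold apart, the 12 equal genes with the highest counts, the 2 largest each way and the member with the highest counts of each list, equal members of machinery and study lists, and genes the study names. Others named (BHLHE40, VHL, CDH1, TBP and markers) were chosen with their values seen. Symbols, matched for 27745 identifiers, gene positions and promoter windows came from RefSeq (GRCh38.p14). XIST and genes of chromosome Y were left out. The alternatives tried were DESeq2 1.42.0, limma-voom (limma 3.58.1), limma on quantile-normalized log2 counts in which 0 was set to 0.5, other scalings and filters, only these 6 libraries, a replicate block, other equivalence bounds, a test against a 2-fold difference and leaving out each library in turn.
 Some genes are not reported here.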

Additional observations from a re-analysis of the deposited data

Results flagged for a closer look

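Groups of 3 libraries are too small for a test of single outlying samples. The third line of the study, 786-O, was part of the joint fit, and so of its scaling and its estimate of spread. With only the 6 libraries compared in the fit, 1438 genes were equal in place of 1585. Otherwise 786-O was used only for values beside single genes and for medians by chromosome and 10 Mb stretch. Among genes left out by the minimum of 50 counts, 234 had a mean of at least 50 counts in 786-O with each 786-O library above every HK2 library. LEF1, a transcription factor of WNT signaling, had a mean of 596.3 counts in 786-O, with 642, 534 and 613 per library, against 5, 7 and 13 in the metastatic line and 12, 34 and 29 in HK2. UGT2A3, a glucuronosyltransferase, had a mean of 541.7 counts in 786-O, against 53, 65 and 57 in the metastatic line and 12, 20 and 25 in HK2. AJAP1, a junction-associated protein, had a mean of 533.7 counts in 786-O, against 3, 1 and 2 in the metastatic line and 0 in each HK2 library. These genes were high in the parental line and low in both lines compared, so a comparison of those lines alone leaves them out.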

How the results depend on the processing

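Counts stayed within 1.5 times the reported ones under most settings. Over all settings 10556 to 13706 genes differed. Without a filter on low counts, which adds genes, 2169 genes were at least 2-fold higher and 3737 lower. ACADS, an acyl-CoA dehydrogenase, went from -0.51 to -0.10 after quantile normalization (limma adjusted p = 0.27). The equal set depended on the bound: 5747 genes were equal within 1.5-fold and 0 within 1.1-fold by edgeR, where 653 had an unadjusted p under 0.05. When each library was left out in turn, 10591 to 10787 genes differed, 1272 to 1319 were at least 2-fold higher, 1979 to 2012 lower and 1220 to 1538 equal, and 9 to 10 lists had a median at least 0.5 from that of all genes. That number was 6 with at least 10 counts asked of every library and 12 after quantile normalization, where 1939 genes were at least 2-fold higher and 1699 lower. Of 795 list medians under other settings, none of which took in members below the minimum, 93 moved by more than the spread between replicates. Of the 1585 equal genes, 742 (46.8%) were equal in every setting, and 68.3% were equal after quantile normalization. The median of all genes was -0.08 with upper-quartile scaling and 0.06 after quantile normalization. Of 450 named genes, 80 changed their call in some setting. After quantile normalization 2 reversed, CDA, cytidine deaminase, from -1.31 to 0.22 (limma adjusted p = 0.45) and ACTB from 0.18 to -0.43, which passed the test there; the cause was not tested. The sizes of some named genes also differed widely between settings, with log2 fold changes of 2.63 to 6.49 for ALDOC, 3.07 to 6.95 for SLC6A9 and -5.605 to -3.81 for IL6R. Replicate numbers did not pair the samples, with correlations of same-numbered deviations of -0.068, -0.155 and 0.043. Under a replicate block 10849 genes differed, 1294 were at least 2-fold higher, 1987 lower and 1587 equal.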

Other observations

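Genes of the germline and of the embryo that tumors can switch on were mostly below the minimum, and 4 of 29 were tested. PRAME, a cancer-testis antigen, had 1467, 1461 and 1581 counts in the metastatic line and 0, 2 and 0 in HK2, a ratio of 2388-fold (95% counting interval 661 to 19728). IGF2BP1, an RNA-binding protein of fetal tissues, went the other way, at 152, 147 and 160.4 CPM in HK2 and 0.14, 0.157 and 0.0795 CPM in the metastatic line. LIN28A, a repressor of let-7 microRNA maturation, had 111, 146 and 164 counts in HK2 and 0 in every metastatic library. All 3 were also far apart between HK2 and 786-O in the same direction.

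Nucleotide synthesis was balanced, with 13 of 33 members higher, 14 lower and 7 equal. TYMP, thymidine phosphorylase, was at 34.7, 31.5 and 29.9 CPM in the metastatic line and 5.78, 6.41 and 5.95 CPM in HK2, while 786-O stood at 3.57 to 3.99 CPM. CTPS1, which makes CTP, was 3.09-fold lower. Mediator subunits, which link transcription factors to RNA polymerase II, were lower in 17 of 32 members, higher in 10 and equal in 5, with MED28 (-1.19) among the lowest and MED10 (1.05) highest. In gluconeogenesis and fructose metabolism SLC37A4, the glucose-6-phosphate transporter, was 2.09-fold higher. Of the RNA exosome and decay factors 8 of 34 were equal, and XRN2, a nuclear exonuclease, was 2.12-fold lower. Of the aminoacyl-tRNA synthetases 6 of 37 were equal, of the RNA polymerase II and general factors 6 of 40, and of the ubiquitin ligase core and anaphase-promoting complex 7 of 30.

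Stretches of 10 Mb with at least 20 genes tested were looked at after the offsets by chromosome had been seen. The highest median was on chromosome 9 from 70000001 to 80000000, 1.98 over 23 genes, none of which was lower. It was 0.12 against 786-O. The lowest was on chromosome 4 from 180000001 to 190000000, -1.51 over 24 genes, and there the metastatic line was also lower than 786-O, with a median of -1.04. On chromosome 14 from 60000001 to 70000000 the median was -0.87 over 48 genes, of which 97.9% were lower than in HK2, with 0.01 against 786-O. Copy number was not measured in these files, and its part in these values was not tested.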
